A study of Mus musculus with 6 samples.

Results

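The testis-specific serine kinases (TSSK) are a small family of protein kinases made in male germ cells after meiosis. They are known for roles in spermatid remodelling and male fertility, and Tsks encodes a protein that TSSK1 and TSSK2 bind and phosphorylate. In the testis, many mRNAs are made before their protein is needed and are stored with a poly(A) tail, the run of adenosines at the 3′ end that enzymes lengthen or shorten. Spermatid mRNAs are known for being kept this way once the nucleus condenses and transcription stops.

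The genes examined were 6, Tssk1, Tssk2, Tssk3, Tssk4, Tssk6 and Tsks. Their contigs, the annotated transcripts to which reads were assigned, were found by gene symbol regardless of case. They made up 10 of the 12114 contigs and carried 2396 reads. All samples came from sorted testicular germ cells of adult C57BL/6J/B6 male mice with no mutation or treatment, 3 samples of pachytene and diplotene (P/D) spermatocytes and 3 of round spermatids (RS). A sample was mRNA pooled from 3 mice, read by nanopore direct RNA sequencing, in which a read is a single molecule and carries its own poly(A) tail. The P/D samples were barcoded into 1 library and the RS samples into another, so cell type and library cannot be told apart. The sorted P/D fraction was an enrichment. By the authors' microscopy a large part of it was other cells, and it was less pure than the RS fraction. No sample of later spermatids was analysed here.

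The samples had between 244004 and 474688 reads. Markers of P/D spermatocytes made up 0.518% to 0.585% of P/D reads and 0.322% to 0.387% of RS reads, and 10 of 10 marker genes had reads. Round spermatid markers (10 of 10 genes with reads) took 0.0405% to 0.0508% of P/D reads and 0.213% to 0.248% of RS reads. Elongating and elongated spermatid markers (10 of 10 genes with reads) took 0.194% to 0.262% and 2.47% to 2.98%, respectively, so these markers were read in both cell types. Of the 6 leptotene and zygotene markers, Prdm9, Meiob and Dmc1 had no read and the list took 0.0262% to 0.0307% of P/D reads and 0.00884% to 0.0135% of RS reads. Each list of 6 spermatogonia, Sertoli cell or Leydig cell markers had reads on 1 gene only, with at most 7 reads in a sample. Zbtb16, Gfra1, Kit, Stra8 and Dmrt1 had none among the spermatogonia markers, nor did Sox9, Amh, Wt1, Rhox5 and Gata1 for Sertoli cells or Hsd3b1, Hsd3b6, Cyp17a1, Cyp11a1 and Star for Leydig cells.

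The genes differ in structure. Tssk1 and Tssk2 are single-exon neighbours on chromosome 16 of GRCm38, both on the plus strand, at 17894223 to 17897922 and 17898637 to 17900024, with 714 bases between their annotated transcripts. Tssk6 (chromosome 8, 69902184 to 69903518, plus strand) also has 1 exon. Tssk3 (chromosome 4, 129489014 to 129491022, minus strand) has 2 exons and Tssk4 (chromosome 14, 55650184 to 55652539, plus strand) has 4. Tsks, at 44943222 to 44958035 of the plus strand of chromosome 7, has 11 exons. Between the coding parts of the kinases, aligned bases were identical at 81.3% for Tssk1 and Tssk2 and at 59.8% to 66.1% for the other pairs. No read was listed on both Tssk1 and Tssk2, while 1 read was shared between Tssk1 and Dgcr2 and 3 between Tssk3 and Fam229a. The whole Tssk1 transcript lies within Dgcr2 on the opposite strand, and Tssk6 overlaps Yjefn3 and Ndufa13 by 529 and 375 bases, likewise on the opposite strand. Direct RNA reads keep their strand.

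The bases before the Tssk1 and Tssk2 start sites are shown because the read numbers of the 2 genes lay close together in each sample, as described below. They come from the RefSeq promoter table of GRCm38.p6, in which all 6 members matched, and run 5′ to 3′ up to the base before the start. The capitals mark runs of 8 or more bases found in the same order in both.
Tssk1 chr16:17894063-17894202 (+): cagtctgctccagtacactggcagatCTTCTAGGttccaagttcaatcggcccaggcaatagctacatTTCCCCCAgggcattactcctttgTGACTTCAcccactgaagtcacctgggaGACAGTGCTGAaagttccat
Tssk2 chr16:17898497-17898636 (+): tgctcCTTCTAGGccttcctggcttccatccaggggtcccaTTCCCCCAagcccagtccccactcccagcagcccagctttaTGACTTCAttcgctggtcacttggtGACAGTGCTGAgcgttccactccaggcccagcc
Of 32851 promoters of the table, CTTCTAGG was found in 0.95%, TTCCCCCA in 1.85%, TGACTTCA in 1.31% and GACAGTGCTGA in 0.0183%, or 6 promoters. Those numbers include the promoters of Tssk1 and Tssk2, from which the runs were taken. The cyclic AMP response element half-site TGACG, searched on both strands, was found in the 250 bases upstream of the start in 1 of the 6 members, Tssk6, at 73 bases upstream, and in 17.8% of promoters. GTTGCC on both strands (10.4% of promoters) and TATAAA on the given strand (7.60%) were found in no member's promoter. These matches describe letters in a window and were not tested for factor binding.

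The poly(A) signal, the hexamer that directs cleavage and addition of the tail, is shown for the main contig of each gene, the contig with most reads, since the tail measured here starts a short way beyond it. The hexamer is in capitals.
Tssk1: agaagcAATAAAtcactatattggtgcaca
Tssk2: ccaccaAATAAAccacaaagtgtatacaag
Tssk3: ctccccAATAAAgtagggggagaaagcaaa
Tssk4: ctataaAATAAAcctaattagtttcaccac
Tssk6: acctgcAATAAAttcgctcttccttgcaa
Tsks: ctgaacAATAAAtggcctctcatgctggca
AATAAA began 23 to 33 bases before the annotated 3′ end of the last 5. The GENCODE contig of Tssk1 has none in its last 40 bases, and the site shown lies 30 bases before the RefSeq end of the gene, 2269 bases upstream of the GENCODE end. Among 6901 transcripts tested for tail length, 61.5% had AATAAA in the last 40 bases, 14.1% had ATTAAA only and 24.4% had neither. TTTTAT, the core of the cytoplasmic polyadenylation element, was in the last 150 bases of no member contig and of 14.9% of the tested transcripts.

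The question of the first comparison was whether the 6 mRNAs accumulate between P/D spermatocytes and RS. All 6 were scarce in the P/D samples and near 10-fold higher in RS. In the order of replicates 1 to 3, the members together had 50, 75 and 32 P/D reads and 579, 931 and 729 RS reads. They took 0.0189% ± 0.0065 of all P/D reads and 0.195% ± 0.0111 of all RS reads (SD, n = 3 each). The groups did not overlap (exact permutation test, two-sided, p = 0.1, the smallest that 3 samples against 3 allow). The 95% Wilson interval of that share was 0.00835% to 0.0166% in P/D replicate 3, the lowest sample, and 0.190% to 0.220% in RS replicate 3, the highest. Such intervals cover counting error only. In bulk samples, a larger share of cells with the mRNA and more mRNA per cell cannot be told apart.

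Tested over all contigs with edgeR's quasi-likelihood test, 8 of the 10 member contigs passed the filter on low counts and 8 were called higher in RS (Benjamini-Hochberg adjusted p under 0.05). The filter kept 6005 contigs, of which 32.6% were higher and 30.8% lower. In CPM (reads scaled to a common library total), the RS replicates of 8 of these 8 contigs all lay above the P/D replicates, as they did for 32.9% of the 6005. The members' P/D counts were too low to pass this filter, so they passed it through RS, where they are high. Their share is thus not a like comparison with 32.6% or 32.9%. Without a count filter, 10 of 10 member contigs were called higher, against 29.7% of 11467 contigs. The members' median log2 fold change, RS over P/D, was 3.34, against -0.03 over all tested contigs. The contigs that did not pass, 1 of Tssk4 and 1 of Tsks, were kept out only by their low counts.

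Tssk1 and Tssk2, whose proteins act together in spermatids, were the most abundant. Tssk1 (ENSMUST00000046937) gave 12, 22 and 8 P/D reads and 149, 257 and 190 RS reads. Tssk2 (ENSMUST00000055374) gave 10, 22 and 8 against 144, 253 and 187. The read numbers of the neighbours thus lay within 5 reads of each other in each sample, and the ratio of Tssk2 to Tssk1 ran from 0.833 to 1.00 for P/D and from 0.966 to 0.984 in RS. Tssk1 rose 10.4-fold (log2 fold change 3.38, SE 0.21, edgeR adjusted p = 8.91e-18). Tssk2 rose 10.7-fold (log2 fold change 3.42, SE 0.21, edgeR adjusted p = 1.22e-17). Between them they held 44.0% to 58.7% of the members' reads in each sample.

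Tssk3, a kinase of later spermatids needed for male fertility in mice, gave 9, 5 and 5 P/D reads and 62, 105 and 91 RS reads. The contig ENSMUST00000000421 rose 9.85-fold (log2 fold change 3.30, SE 0.29, edgeR adjusted p = 2.68e-13). Tssk6, a kinase needed for packaging of sperm chromatin, had 6, 4 and 6 reads against 53, 83 and 55, and its contig ENSMUST00000050373 had the smallest change of the 8, 8.62-fold (log2 fold change 3.11, SE 0.30, edgeR adjusted p = 6.99e-12). Each RS sample lay above each P/D sample for both genes.

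Tssk4 and Tsks were each read as 3 contigs. Tssk4, a kinase linked to the sperm flagellum, gave 8, 11 and 2 P/D reads and 80, 104 and 111 RS reads over its contigs. Its main contig ENSMUST00000228395 rose 11.3-fold (log2 fold change 3.50, SE 0.35, edgeR adjusted p = 1.24e-11). In RS this contig held 63.1% ± 1.34 of the Tssk4 reads (SD, n = 3), and ENSMUST00000226591 and ENSMUST00000007735 held 23.9% ± 1.29 and 13.0% ± 1.10. Over the 21 P/D reads of the gene the main contig held 57.1% (95% Wilson interval 36.5% to 75.5%), which includes the RS share. Tsks had 5, 11 and 3 reads against 91, 129 and 95. Its main contig ENSMUST00000120929 had the largest change of the tested members, 12.7-fold (log2 fold change 3.67, SE 0.34, edgeR adjusted p = 2.23e-12). It held 56.4% ± 6.71 of Tsks reads in RS and 52.6% of 19 P/D reads (31.7% to 72.7%). Reads of isoforms that share most of their sequence could be divided among them by the authors' alignment, so the shares depend on it. Summed per gene, 6 of 6 members were called higher, with log2 fold changes of 3.17 to 3.66.

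**Figure D1:**
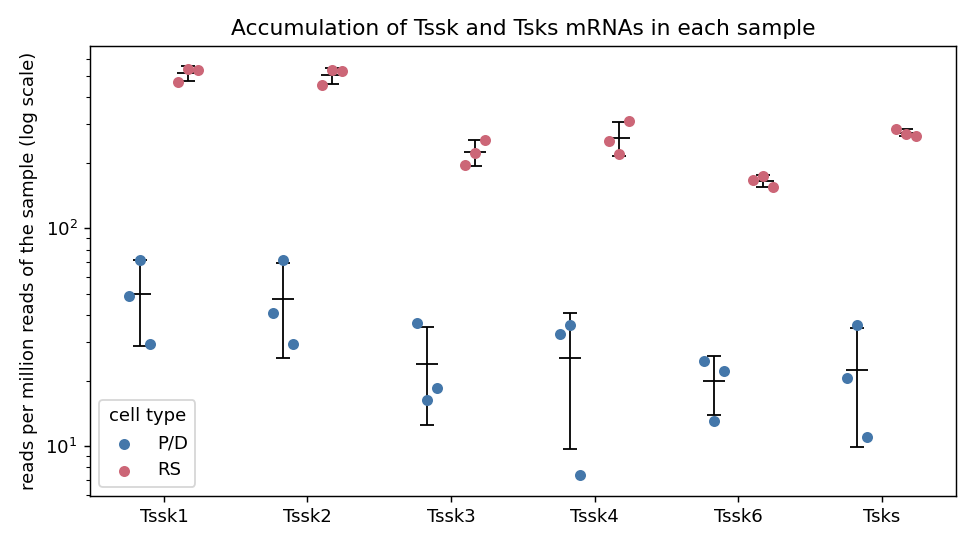
CPM (log axis) for each gene, with points for the 3 P/D (blue) and 3 RS (red) samples, and bars for mean and SD. RS samples sit between 154 and 541 CPM and P/D samples between 7.37 and 71.9, with no overlap for any gene.

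Levels were compared between genes as CPM divided by transcript length in kilobases, with the RefSeq length for Tssk1. Per kilobase, the RS levels were 363 ± 31.1 for Tssk2, 355 ± 26.8 for Tssk1 and 205 ± 36.9 for Tssk4. Those of Tssk3, Tsks and Tssk6 were 175 ± 23.4, 149 ± 5.83 and 124 ± 7.73 (SD, n = 3). On this scale the ranges of Tssk2 and Tssk1, of Tssk4 and Tssk3, and of Tssk3 and Tsks overlapped. Within samples, Tssk2 was above Tssk1 per kilobase in 3 of 3, by 8.31 ± 4.25, the reverse of their order in CPM. That reversal comes from the lengths used, 1388 bases for Tssk2 and 1451 for Tssk1. Tssk4 was above Tssk3, and Tssk3 above Tsks, in 2 of 3 each. On this scale these latter neighbours thus did not differ beyond their spread. The range of Tssk4 lay below that of Tssk1, and that of Tssk6 below that of Tsks. With the GENCODE length of 3700 bases the Tssk1 level was 139 ± 10.5, which moved it below Tsks. Among P/D samples the levels per kilobase were 34.6 ± 14.6 for Tssk1, 34.2 ± 15.8 for Tssk2 and 19.9 ± 12.3 for Tssk4. They were 18.7 ± 8.83 for Tssk3, 14.9 ± 4.54 for Tssk6 and 12.2 ± 6.82 for Tsks. The spread of these P/D levels left no neighbours apart.

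The second comparison asked whether the tails of these mRNAs lengthen between the cell types, as the library did as a whole. The mean tail of all reads was 107 to 109 nt in the P/D samples and 152 to 157 nt in the RS samples. The members' reads in the P/D samples were long-tailed. Over the replicates, their mean tail was 155, 162 and 163 nt (P/D) and 163, 161 and 165 nt (RS). The groups overlapped, and the difference was 2.83 nt (exact permutation test, two-sided, p = 0.5). The excess of the members' mean tail over that of all reads was 46.1, 54.6 and 56.0 nt for P/D and 8.10, 8.40 and 7.80 nt for RS. This restates the rise of all reads against the members' small difference. Its test (exact permutation test, two-sided, p = 0.1, the smallest possible) thus adds nothing further. Without Tssk1 and Tssk2 the values were 162 ± 9.90 nt for P/D and 164 ± 2.69 nt for RS (SD, n = 3 each).

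**Figure D2:**
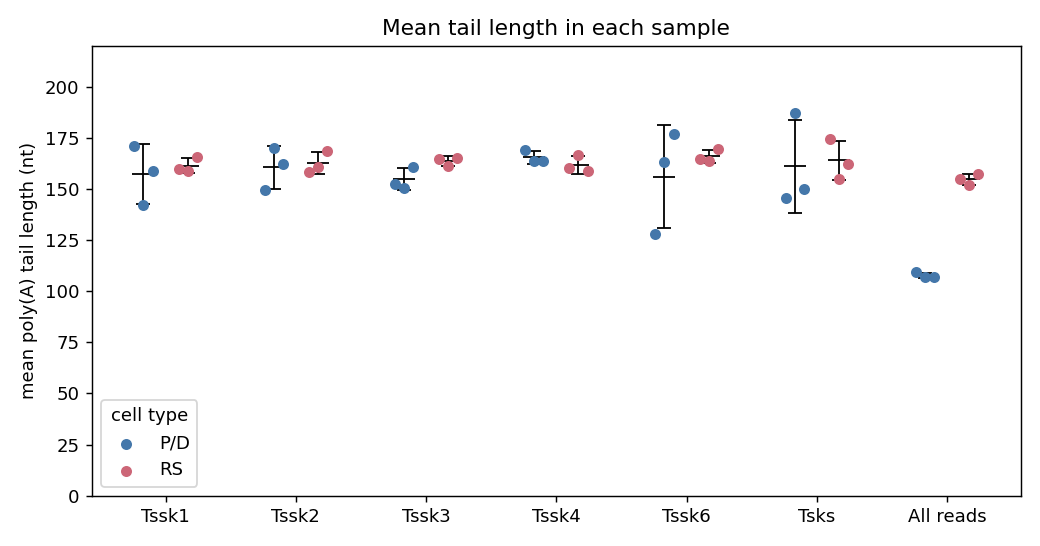
Mean poly(A) tail length in nt for each gene and for all reads, with points for the 3 P/D (blue) and 3 RS (red) samples, and bars for mean and SD. The gene means of the P/D samples spread around those of RS, while all reads went from 107 to 109 nt up to 152 to 157 nt.

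Mean tails per contig were tested with limma over 6990 contigs, of which 54.2% were called longer and 1.69% shorter in RS, with a median difference, RS minus P/D, of 37.4 nt. Of the 10 member contigs 9 were tested, 0 were called longer and 0 shorter, and 0 had an unadjusted p under 0.05. Tssk1 and Tssk2 were the only 2 that reached the read minimum of 10 in 2 replicates of both cell types. The other 7 passed it only in RS and had 0 to 9 reads in a P/D sample, so their share is not a like comparison with 54.2%. Where both cell types had to reach the minimum, 76.0% of 3889 contigs were called longer and 0 of these 2 members were. At an unadjusted p under 0.05, limma called 58.4% of all contigs longer, and the equal-variance test of the methods called 53.6% of all contigs and 0 members. The lowest unadjusted limma p was 0.154. The members' differences had a median of 4.13 nt and ran from -17.4 to 16.3 nt. A p that misses the threshold does not show equal tails. The 95% intervals of 4 contigs, the main contigs of Tssk1, Tssk2, Tssk3 and Tsks, ended below the 37.4 nt median of all contigs, and those of the other 5 included it. The bound for Tssk3 rests on 9, 5 and 5 P/D reads. With weights by reads the Tssk3 difference was 9.22 nt (limma adjusted p = 0.52, against 0.23 without weights). The bound for Tsks rests on 3, 5 and 2 P/D reads and did not hold with tails of 10 to 300 nt only, where its difference was 47.0 nt in place of -17.4 nt.

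Tssk1 had mean tails of 171, 142 and 159 nt in the P/D samples and 159.7, 159 and 166 nt in RS. The difference was 4.13 nt (SE 8.63, 95% interval -16.9 to 25.2, limma adjusted p = 0.711). Tssk2 had 149.6, 170.2 and 162 nt against 158, 161 and 169 nt, a difference of 2.09 nt (SE 7.43, interval -16.0 to 20.2, limma adjusted p = 0.83). For both genes the RS means lay inside the P/D range.

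Tssk3 had 153, 151 and 161 nt in the P/D samples and 165, 161 and 165 nt in RS. It was 1 of 8 member contigs with a mean in all 6 samples, and the only 1 of them whose RS replicates all lay above the P/D replicates. Among all 6464 contigs with 6 means, 63.6% did so. With medians in place of means its samples overlapped and the difference was -3.24 nt. Its difference was 9.04 nt (SE 5.75, interval -4.97 to 23.1, limma adjusted p = 0.23). Tssk6, with 128, 163 and 177 nt against 165, 164 and 169.7 nt, differed by 9.97 nt (SE 12.9, interval -21.4 to 41.3, limma adjusted p = 0.543). P/D replicate 1, with 6 reads, set the low end of its range.

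The remaining genes rested on few P/D reads. Summed over its contigs, Tssk4 had mean tails of 169, 163 and 164 nt in the P/D samples and 160.1, 167 and 159 nt in RS, a difference of -3.75 nt (SE 5.09, limma adjusted p = 0.566). Tsks summed likewise had 146, 187 and 150.1 nt against 174, 155 and 162 nt, a difference of 2.97 nt (SE 12.5, limma adjusted p = 0.859). P/D replicate 3 held 2 reads of Tssk4 and 3 of Tsks. The Tssk4 contig ENSMUST00000226591 was fitted without that sample, in which it had no read.

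The members were close to one another in RS. Their gene means over the 3 RS samples lay between 161 nt (Tssk1) and 166 nt (Tssk6). Of the 15 pairs of genes, 2 kept the same order in all RS samples, with differences of -4.57 ± 0.551 nt for Tssk1 minus Tssk6 and -3.40 ± 2.65 nt for Tssk2 minus Tssk6 (SD, n = 3). An exact sign-flip test over 3 samples cannot go below p = 0.25.

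The class around the RS peak was larger in RS over the members' summed reads. Tails of 120 to 210 nt made up 68.0%, 76.0% and 59.4% of the members' P/D reads and 81.3%, 79.1% and 79.4% of their RS reads. The groups did not overlap, and the difference was 12.2 percentage points (exact permutation test, two-sided, p = 0.1, the smallest possible), or 7.94 points without P/D replicate 3. Tssk4 went the other way, from 80.3% ± 26.6 of P/D reads to 69.6% ± 3.71 of RS reads, with overlapping samples. The Wilson intervals of the P/D samples were wide, 42.3% to 74.5% in replicate 3 with 32 reads. In all reads the class went from 29.6% ± 0.939 of P/D reads to 67.5% ± 0.990 of RS reads. Tails of 30 to 120 nt made up 18.3% ± 5.86 of the members' P/D reads and 10.7% ± 1.47 of their RS reads, against 61.1% ± 1.54 and 22.3% ± 1.64 of all reads. Tails of 210 nt or longer were 12.5% ± 4.01 and 9.16% ± 0.994 of the members' reads, and those values overlapped. Over pooled reads the members' median tail was 165 nt in the P/D samples (quartiles 136 and 188 nt, 157 reads) and 162 nt in RS (143 and 181 nt, 2239 reads).

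**Figure D3:**
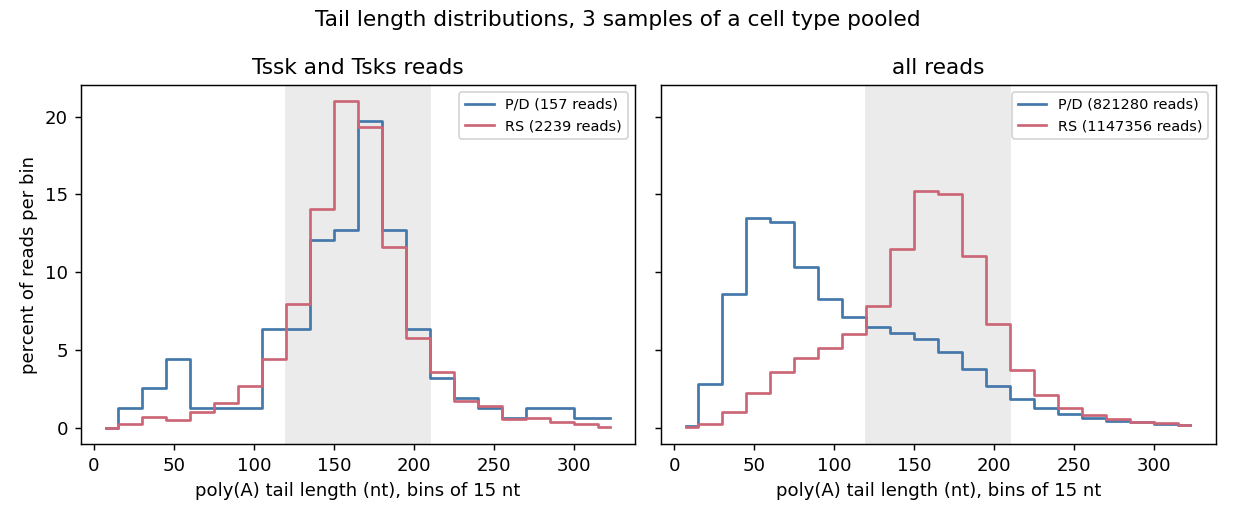
Percent of reads per bin of 15 nt of tail length for the members (left) and all reads (right), with the 3 samples of a cell type pooled, the 120 to 210 nt class shaded, and the axis ending at 330 nt. The members' P/D (blue) and RS (red) curves largely overlap, with a few short-tailed P/D reads, while all P/D reads peak at short tails.

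The members were not alone in this. Contigs tested for both measures numbered 5916. Among the 640 other contigs with a log2 fold change of 3 or more, the range in which all 8 members fell, 7.97% were called longer, the median tail difference was 5.33 nt and the median P/D mean tail was 159 nt. Among the 3370 other contigs between -1 and 1, 73.5% were called longer, with a median difference of 47.2 nt and a median P/D mean tail of 108 nt. Shares called longer also depend on P/D read numbers, which were not matched between the classes. The 8 members had a median difference of 6.59 nt and a median P/D mean tail of 157 nt. The P/D mean tails of the members stood between percentiles 74.5 and 96.9 of the tested contigs, and their RS mean tails between percentiles 39.9 and 64.1.

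**Figure D4:**
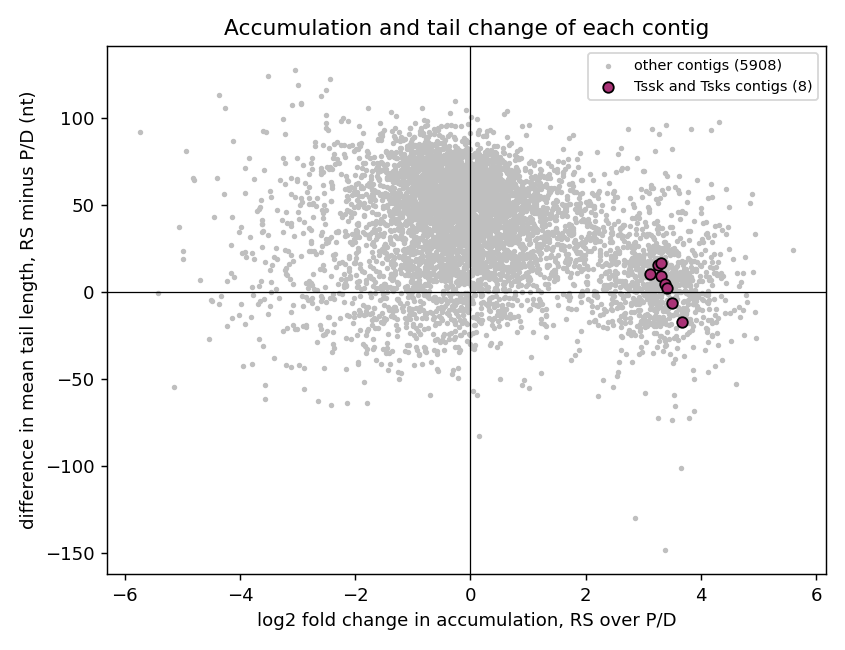
Each point is a contig tested for both measures, with the log2 fold change in accumulation, RS over P/D, on the x axis and the difference in mean tail length in nt on the y axis. The 8 Tssk and Tsks contigs lie between 3.11 and 3.67 on the x axis and between -17.4 and 16.3 nt on the y axis, inside a group of other contigs with large fold changes.

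Markers of later germ cells were set beside the members. The contigs of the elongating and elongated spermatid markers were called higher in 16 of 16 cases, at a median log2 fold change of 3.59, and longer in 4 of 16, with a median difference of 8.02 nt. Their reads had tails of 120 to 210 nt in 67.7% to 69.8% of P/D reads and 73.5% to 78.2% of RS reads. Round spermatid markers were higher in 11 of 12 and longer in 2 of 14, with a median difference of 5.84 nt. Over their summed reads the mean tail went from 135 to 153 nt in P/D samples to 181 to 185 nt in RS samples, and the class went from 40.2% to 46.0% up to 56.4% to 65.7%. In the P/D samples that class thus lay below the members' 59.4% to 76.0% for the round spermatid list and within it for the elongating spermatid list. P/D markers had a median difference of 12.8 nt and were lower in 10 of 15. Many contigs of the spermatid marker lists had few P/D reads and passed the filters only through RS. Their counts are thus not a like comparison with the 32.6% higher and 54.2% longer of all tested contigs. Acr, with 56, 60 and 61 P/D reads, lengthened by 61.3 nt, and Spaca3, with 14, 10 and 12, differed by -10.4 nt without a call. The share of all reads on elongating spermatid markers was 12.3 times higher in RS than in the P/D samples, on round spermatid markers 5.33 times and on the members 10.3 times. Whether the members' P/D reads came from spermatids within the sorted P/D fraction was not tested.

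**Figure D5:**
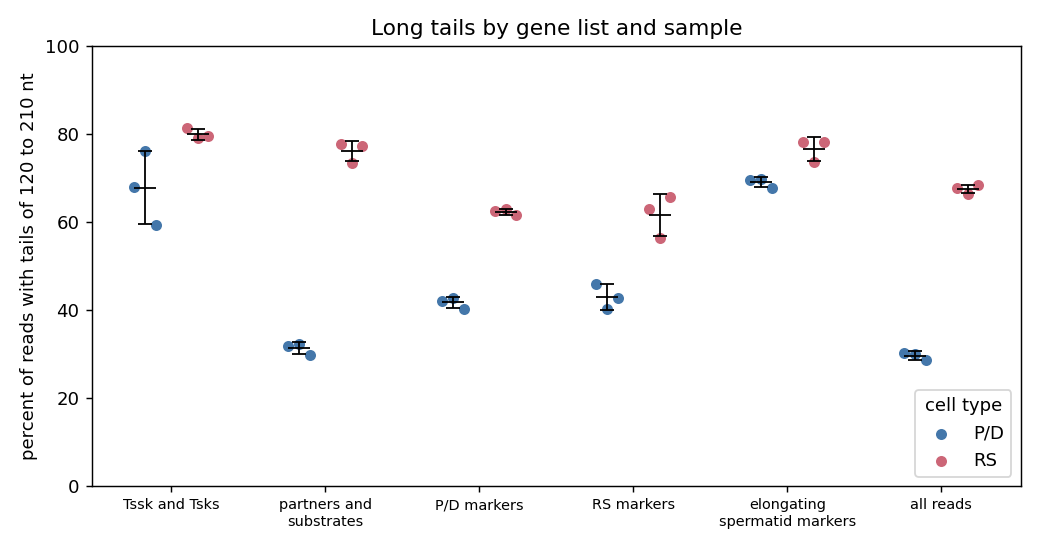
Percent of reads with tails of 120 to 210 nt by gene list, with points for the 3 P/D (blue) and 3 RS (red) samples, and bars for mean and SD. Tssk and Tsks reads of the P/D samples reach 59.4% to 76.0%, near the elongating spermatid markers and above the partners and all reads.

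Genes around the kinases behaved differently from gene to gene. The list of 8 TSSK partners and substrates, chosen with earlier results known, holds the co-chaperone Tsacc, the chaperones Hsp90aa1, Hspa8 and Hspa1l, the upstream kinase Pdpk1, the phosphatase subunit Ppp1cc and the flagellar genes Odf2 and Spag16. Of 15 contigs tested for accumulation, 8 were higher and 5 lower in RS, and the median log2 fold change was 0.72. Of 16 tested for tails, 11 were longer and 0 shorter, with a median difference of 46.7 nt and a median P/D mean tail of 111 nt. Of all tested contigs, 54.2% were called longer, or 76.0% where both cell types reached the read minimum. For accumulation, 32.6% of all were higher and 30.8% lower. The list's counts were not tested against these shares, and 6 of the 16 are Odf2 contigs. Tsacc, whose product binds TSSK6 and HSP70, went from 100.5 to 159.8 nt (limma adjusted p = 0.000511), with a log2 fold change of 0.14 (edgeR adjusted p = 0.349). The 6 tested contigs of Odf2, an outer dense fibre component, lengthened by 41.7 to 56.7 nt, and 5 of them were higher, by log2 fold changes of 0.75 to 1.41. Ppp1cc, a sperm phosphatase subunit, lengthened by 63.9 nt with a log2 fold change of -0.31 (edgeR adjusted p = 0.0123). The 2 tested contigs of Hsp90aa1 were lower (log2 fold changes -0.57 and -0.93) and longer by 42.4 and 46.8 nt. Of the 2 Spag16 contigs, ENSMUST00000065425 was lower (-0.53) and longer by 34.7 nt, whereas ENSMUST00000161310 was higher (0.72) with a tail difference of -7.82 nt (limma adjusted p = 0.463). Hspa8 was lower (-2.18, edgeR adjusted p = 2.23e-05). Hspa1l, a testis HSP70 gene described after its values were seen, had a log2 fold change of 3.28 (edgeR adjusted p = 6.89e-14) and mean tails of 157 nt in P/D and 168 nt in RS (limma adjusted p = 0.55). The Pdpk1 contig ENSMUST00000102927, described likewise, was higher (1.88, edgeR adjusted p = 1.61e-05) with a tail difference of -33.45 nt (limma adjusted p = 0.205). Contigs of 1 gene share sequence, so the alignment could divide their reads among them. Whether the partners differed from the kinases was not tested.

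Other protein kinases of male germ cells, 11 genes, had 2 contigs higher and 5 lower of 10 tested (median log2 fold change -0.48) and 7 longer and 0 shorter of 11, with a median difference of 39.7 nt. The shares over all contigs were 32.6% higher, 30.8% lower, 54.2% longer and 1.69% shorter. Csnk2a2, a casein kinase subunit of spermatids, lengthened by 70.8 nt on its contig ENSMUST00000056919, with a log2 fold change of -0.57 (edgeR adjusted p = 0.0168). The 3 tested contigs of Stk33, a kinase of the sperm flagellum, lengthened by 60.1 to 80.7 nt. The 2 contigs called higher, both of Mak and likewise described after their values were seen, had log2 fold changes of 3.37 (ENSMUST00000224740) and 1.35 (ENSMUST00000021792). The first had mean tails of 149.6 and 169.7 nt (limma adjusted p = 0.638) and the second was longer by 25.15 nt (limma adjusted p = 0.0403). Stk31 (-3.66), Gsk3a (-1.65) and Prkaca (-1.08) were lower. Tssk5, a further kinase of the family, gave 2, 2 and 0 P/D reads and 5, 14 and 2 RS reads, too few for either test.

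The chromatoid body, the RNA granule of round spermatids in which TSSK1, TSSK2 and TSKS proteins have been placed, was taken as a list of 8 component genes. Of 12 tested contigs 3 were higher and 4 lower, and of 14 tested for tails 6 were longer and 1 shorter, with a median difference of 14.5 nt. Over all tested contigs, 32.6% were higher, 30.8% lower, 54.2% longer and 1.69% shorter. The helicase gene Ddx25 and the main contig of Mael, a piRNA pathway gene, lengthened by 58.6 and 67.6 nt without a called change in accumulation (log2 fold changes 0.01 and -0.12, edgeR adjusted p = 0.923 and 0.286). Mael's other tested contig was higher (1.21) and longer by 70.5 nt. Tdrd6 lengthened by 32.3 nt. The tail differences of Ddx4, the germ cell RNA helicase gene, were 11.8 and 17.1 nt and those of Tdrd7 were -24.5 and -13.8 nt, none past the threshold. Piwil1, a piRNA-binding protein gene, was lower (-3.94) and shorter (difference -42.6 nt, limma adjusted p = 0.00432), while Piwil2 was lower (-2.58) and longer by 47.1 nt. For Tdrd1, 2 contigs were lower (-3.80 and -1.97).

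No member had 10 reads in every sample, so the genes with the most similar tail pattern were sought among 4776 contigs with at least 5, a minimum chosen after the data were seen. Likeness was the root mean square difference of the mean tail over the 6 samples. The nearest to Tssk1 were Spem1 (4.39 nt), a gene of late spermatid maturation, and Asb1 (5.27 nt), against a median of 39.5 nt over the 4775 candidates. Ubl4b (4.74 nt) and Dpy30 (5.16 nt) were nearest to Tssk2, and Spats2 (5.11 nt) and Spem1 (5.32 nt) to Tssk3. These are descriptions with few P/D reads behind them, 5 to 44 for each nearest contig in a sample.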

How the data were processed

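The authors basecalled the direct RNA reads with Guppy, separated barcodes with Deeplexicon, mapped the reads to the GENCODE transcriptome (GRCm38) using minimap2 and took tails from Nanopolish. They deposited raw counts of reads per contig and, read by read, the tail length in nt. Both tables held the same number of reads for each of the 12040 contigs with a read. Nanopolish infers a tail from the time it takes to cross the pore, so single estimates are noisy. Reads without a passing estimate are not in the table.

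Contigs were grouped by the symbol in the tail table. Mean tails per contig and sample were tested with limma 3.58.1 where 2 or more replicates of either cell type reached 10 reads and both types had 2 or more means. The count test was edgeR 4.0.16 (TMM, filterByExpr, quasi-likelihood test), with DESeq2 1.42.0 as an alternative, in R 4.3.3. All p-values across contigs were Benjamini-Hochberg adjusted over all contigs, at a threshold of 0.05. Values with 1 number a sample were compared by exact permutation (scipy 1.17.1). Tests were checked on simulated data, with tail changes placed in contigs with more reads per sample than any member had in a P/D sample. That check thus does not cover tail tests at the members' read numbers. P-values rest on the spread between pools of mice, which for the members includes counting error from few P/D reads. In limma and edgeR that spread is also shared over contigs. With 1 library per cell type, spread between libraries is not covered.

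Alternatives were other read minimums, summaries, scales, weights, tail ranges, normalizations and filters, the replicate number as a block, the methods' own test, and leaving out each replicate. Chosen after the data were seen were the minimums of 5 reads for likeness and of 3 reads for tails, the values without Tssk1 and Tssk2, pooled member tails, marker shares, the classes of accumulation and the excess over all reads. The members and lists were chosen with earlier results of these data known. Named genes were all members and, in the 3 gene lists, contigs with at least 10 reads in every sample or called lower or shorter. Tsacc and others with a value were named by that rule, and Hspa1l, Mak, Pdpk1 and Tssk5 outside it. Sequences came from GENCODE vM21 transcripts, the GRCm38.p6 genome and RefSeq promoters. Fold changes and log2 values were computed here, and no deposited comparison was used.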

Additional observations from a re-analysis of the deposited data

How the results depend on the processing

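Over the alternatives run, 0 member contigs were called longer or shorter in RS in each of them, and the adjusted p of a member tail difference was never below 0.0927. All tested members were called higher in each count alternative that could test them. For the 8 contigs of the main count test, log2 fold changes under the alternatives ran from 2.76 to 4.49. None passed a minimum of 10 counts in every sample, so that alternative gave no value. Upper-quartile factors moved the median of all contigs from -0.03 to -0.16 on the log2 scale. With the member contigs summed as the main contig of each gene only, the rise in the percent of all reads was 0.156 points against 0.176, and without Tssk1 and Tssk2 it was 0.0835.

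Leaving out 1 replicate gave a rise of 7.94 to 16.3 points in tails of 120 to 210 nt, 7.94 without P/D replicate 3, and 0.171 to 0.182 points in the percent of all reads. Small tail differences changed sign without being called, and the cause was not tested. With medians, Tssk1 differed by -3.71 nt, Tssk3 by -3.24 nt and the Tssk4 contig ENSMUST00000007735 by -4.39 nt. With weights by reads Tssk2 differed by -0.624 nt. With tails of 10 to 300 nt, ENSMUST00000007735 differed by -6.80 nt and the main Tsks contig by 47.0 nt. Leaving out 1 replicate in turn, the difference ran from -3.50 nt (without P/D replicate 2) to 10.9 nt for Tssk1, from -3.41 (without P/D replicate 1; -0.887 without RS replicate 3) to 6.90 nt for Tssk2, from -6.82 to 23.3 nt for ENSMUST00000007735 (-6.82, -4.72 and -5.65 without P/D replicates 1 and 2 and RS replicate 3), from -25.6 to 10.9 nt (without P/D replicate 1) for the main Tssk4 contig, from -3.97 (without P/D replicate 1) to 20.4 nt for Tssk6, from -11.2 (without P/D replicate 3) to 33.3 nt for the Tsks contig ENSMUST00000080233 and from -37.8 to 3.45 nt (without P/D replicate 2) for the main Tsks contig.

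The replicate numbers were treated as names. The authors' Reporting Summary says that the cell types came from the same mice, but no source ties equal numbers to the same pool. Correlations of same-numbered samples' deviations were -0.0106, 0.0771 and 0.0157 for tails and 0.026, 0.24 and 0.0704 for accumulation. With the number as a replicate block, 0 member contigs were longer and 8 higher, the 120 to 210 nt class rose by 12.2 ± 8.56 points and the percent of all reads by 0.176 ± 0.0157 points (SD of 3 differences, exact sign-flip test, two-sided, p = 0.25 each, the smallest possible).

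The P/D values rest on 157 member reads, with as few as 2 reads per gene in a sample, and the SE of a member's tail difference was 5.75 to 23.7 nt.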
